A study of Mus musculus with 8 samples.

Results

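The genes flanking the Trpv2 locus on mouse chromosome 11 were followed in cultures with and without excision of Trpv2 by Cre. They were taken by position, as the genes of the deposited tables that start between 59.5 and 65.5 Mb of chromosome 11, without Trpv2 itself, Srebf1 and Slc47a1. The rule uses position and names alone, though it was set with earlier results of these data known. The rule gave 61 of the 15377 genes listed. The table of bone marrow-derived macrophages (BMDM) held 57 of them, the table of bone marrow-derived dendritic cells (BMDC) held 59, and 55 were in both. All 61 are protein-coding genes in GENCODE M21, and by the deposited coordinates 47 lie before Trpv2 and 14 after it.

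Poly(A) RNA was sequenced from 8 bone marrow cultures of C57BL/6 mice, with 2 libraries in each of 4 groups. Knockout cultures came from mice with loxP-flanked Trpv2 alleles (Trpv2 fl/fl) and Lyz2-Cre, and control cultures from mice with the same alleles and no Cre. BMDM were grown with M-CSF at 10 ng/mL and BMDC with GM-CSF at 20 ng/mL, and both were collected on day 7. Since every library carries the loxP alleles, a knockout contrast here shows what goes with Cre and the excision. The loxP alleles themselves cannot be told apart from an unmodified locus, because no culture without them was analysed here. Lyz2-Cre sits in the lysozyme locus and acts in macrophages and granulocytes and in a part of dendritic cells, so some cells of a culture can keep Trpv2. The age of the mice, and whether a mouse gave both kinds of culture, are not stated in the sources used here, so the p-values measure the spread between these libraries.

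The Trpv2 protein is a cation channel that lets calcium through, found at the plasma membrane and on endosomes, and it is strongly expressed in phagocytes. An edited allele can alter its neighbours when regulatory DNA is removed or a cassette is left in place, and DNA linked to the allele also travels with it through crosses, which is why genes close to a targeted locus are examined. The genes flanking Trpv2 include Ubb, a source of polyubiquitin, the nuclear receptor corepressor Ncor1, the adenosine receptor Adora2b, the kinases Map2k3, Mapk7 and Ulk2, and a series of genes for mitochondrial, cytoskeletal and nuclear proteins.

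The sequences below are RefSeq windows on GRCm38.p6 around a transcription start, from 250 bases before it to 50 after. They are shown for Trpv2, for its abundant neighbour Ubb and for the flanking genes with a RefSeq window that differed between BMDM and BMDC, and are read 5′ to 3′ on the strand of the gene. They lie at chr11:62574263-62574562 (plus strand) for Trpv2, chr11:62550921-62551220 (plus strand) for Ubb, chr11:62248734-62249033 (plus strand) for Adora2b, chr11:61579638-61579937 (minus strand) for Epn2 and chr11:61126505-61126804 (plus strand) for Tnfrsf13b. Capitals mark, on either strand, the CCAAT box (CCAAT), the TATA box (TATAAA), a PU.1-type motif (GAGGAAGT), an E-box (CACGTG) and a GC box (GGGCGG), none of which contains another.
Trpv2: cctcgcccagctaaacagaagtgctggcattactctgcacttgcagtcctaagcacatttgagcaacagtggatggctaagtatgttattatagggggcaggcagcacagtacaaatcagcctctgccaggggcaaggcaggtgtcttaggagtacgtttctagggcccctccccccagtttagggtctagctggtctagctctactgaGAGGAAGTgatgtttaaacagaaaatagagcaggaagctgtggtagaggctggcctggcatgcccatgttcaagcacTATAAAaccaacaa
Ubb: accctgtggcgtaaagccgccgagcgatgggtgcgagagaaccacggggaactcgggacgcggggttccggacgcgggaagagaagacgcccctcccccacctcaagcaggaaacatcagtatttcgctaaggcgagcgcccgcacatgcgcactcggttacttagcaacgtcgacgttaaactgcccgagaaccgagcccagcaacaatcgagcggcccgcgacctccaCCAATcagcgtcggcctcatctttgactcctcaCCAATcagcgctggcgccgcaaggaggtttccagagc
Adora2b: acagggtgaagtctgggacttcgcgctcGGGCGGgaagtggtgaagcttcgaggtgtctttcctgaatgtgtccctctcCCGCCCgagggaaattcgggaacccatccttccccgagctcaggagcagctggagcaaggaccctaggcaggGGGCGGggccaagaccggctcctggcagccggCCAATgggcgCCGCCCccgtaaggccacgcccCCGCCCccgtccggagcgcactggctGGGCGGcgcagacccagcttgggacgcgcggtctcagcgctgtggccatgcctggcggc
Epn2: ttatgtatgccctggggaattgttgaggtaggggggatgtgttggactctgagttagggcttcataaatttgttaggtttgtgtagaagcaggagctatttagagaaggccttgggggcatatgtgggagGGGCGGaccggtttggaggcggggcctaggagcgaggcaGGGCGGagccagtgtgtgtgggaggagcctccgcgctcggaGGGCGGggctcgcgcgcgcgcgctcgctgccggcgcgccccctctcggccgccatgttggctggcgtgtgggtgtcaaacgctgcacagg
Tnfrsf13b: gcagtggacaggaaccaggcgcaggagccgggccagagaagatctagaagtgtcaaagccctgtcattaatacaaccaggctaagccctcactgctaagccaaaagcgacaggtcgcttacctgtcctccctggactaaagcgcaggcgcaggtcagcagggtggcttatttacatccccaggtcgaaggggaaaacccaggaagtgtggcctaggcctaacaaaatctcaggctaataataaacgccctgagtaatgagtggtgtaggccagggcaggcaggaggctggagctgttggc
The table holds 3 windows for Trpv2. The window shown held a PU.1-type motif and, after the start, a TATA box; the first held the PU.1-type motif without the TATA box, and the third held no motif. None of them held a GC box. Of the 2 Ubb windows, the one shown held 2 CCAAT boxes and the other 2 GC boxes and no CCAAT box. The Adora2b window held 6 GC boxes and the Epn2 window 3. RefSeq windows were matched for 50 of the 61 flanking genes, 61 windows in all. A GC box was found in 62.3% of these 61 windows, against 35.7% of all 32851 RefSeq windows of this length. The E-box was found in 16.4% of the windows of flanking genes and in 7.15% of all windows, and the CCAAT box in 44.3% against 37.4%. The TATA box was in 3.28% of the windows of flanking genes (2 of 61) and in 13.6% of all windows. The PU.1-type motif was in 1.64% of the windows of flanking genes (1 of 61), against 3.20% of all windows. The windows of flanking genes held a median of 23 CG dinucleotides, against 7 in all windows. All windows include genes that are not listed in the deposited tables, and a match describes the letters only.

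Trpv2 itself, which checks the labels, was low in all knockout libraries. It had 26.4 and 29.1 CPM in BMDM knockout libraries (reads relative to the library total, scaled by TMM), against 273 and 277 CPM in BMDM controls. This left 10.1% of the control mean, a log2 fold change of -3.31 ± 0.17 (SE) with an adjusted p of 3.55e-15 by the edgeR quasi-likelihood test (Benjamini-Hochberg). In BMDC it had 35.5 and 56.3 CPM in knockout libraries, against 181 and 240 CPM in controls, or 21.8% of the control mean. The knockout and control libraries did not overlap in either cell type, but in BMDC the log2 fold change of -2.20 ± 0.42 (SE) did not pass adjustment over all genes by edgeR (adjusted p = 0.972, unadjusted p = 0.00178). In bulk RNA, fewer cells that express a gene and less RNA per cell cannot be told apart.

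Libraries held 15790185 to 19463457 counts. BMDC knockout 2 stood apart, with Spearman correlations of 0.940 to 0.945 to the other BMDC libraries, which correlated with each other at 0.980 to 0.984. It also had summed macrophage markers of 9943 CPM and dendritic cell markers of 591 CPM, against 5196 and 284 CPM in BMDC knockout 1 and 4520 to 6261 and 184 to 200 CPM in BMDC controls. Summed B cell markers were 28.9 CPM in that library and 1.19 to 3.60 CPM in the other BMDC libraries, and mast cell and basophil markers 42.0 CPM against 7.96 to 18.5 CPM. Neutrophil markers were 175 CPM in BMDC knockout 2, 48.8 CPM in knockout 1 and 73.2 and 170 CPM in BMDC controls. T and NK cell markers were 1.88 CPM in knockout 2, against 1.35 to 4.82 CPM in the other BMDC libraries. Fibroblast and stromal markers were lower in knockout 2, at 2.16 CPM against 8.12 to 14.8 CPM. Macrophage markers summed to 11881 to 13406 CPM over the BMDM libraries. Dendritic cell markers summed to 111 to 128 CPM there, over 7 of 10 markers, since Ccl17, Cd209a and Flt3 were not listed.

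In BMDM, of the 4 nearest tested genes on each side of Trpv2, Cenpv and Zfp286 had knockout and control libraries that did not overlap. The others overlapped. Of all genes tested in BMDM, 26.8% did not overlap. Lrrc75a, which encodes a leucine-rich repeat protein and ends 4.37 kb from the end of Trpv2, had 17.8 and 20.6 CPM in knockout libraries, against 23.8 and 15.8 CPM in controls. Its log2 fold change was -0.05 with a 95% interval of -0.47 to 0.38. Both knockout values thus lay within the range of the controls. Ubb, 21.3 kb before Trpv2, had 610 and 693 CPM in knockout libraries, against 762 and 638 CPM in controls (log2 fold change -0.10, interval -0.44 to 0.23). Mmgt2, a membrane magnesium transporter gene 48.1 kb after Trpv2, had 22.9 and 21.4 CPM in knockout libraries and 21.6 and 20.4 CPM in controls, which also overlap. Pigl, which encodes an enzyme of GPI anchor synthesis, had 4.68 and 4.50 CPM in knockout libraries, against 5.17 and 3.17 CPM in controls. Ncor1, which overlaps Ttc19 by 12026 bases, had 101 and 91.9 CPM in knockout libraries, against 79.6 and 102 CPM in controls.

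Cenpv, a gene for a centromere protein 35.2 kb before Trpv2, had 2.77 and 3.33 CPM in BMDM knockout libraries, against 4.07 and 3.37 CPM in controls. The libraries did not overlap, but the gap of the nearest libraries was small beside the spread of the controls, and the log2 fold change was -0.28 with an interval of -0.99 to 0.42. The zinc finger gene Zfp286 had 1.54 and 2.51 CPM in knockout libraries, against 1.45 and 1.30 CPM in controls (log2 fold change 0.56 ± 0.47, SE). Its neighbour Zfp287, 99.8 kb after Trpv2, had 3.63 and 3.86 CPM in knockout libraries, against 3.86 and 2.40 CPM in controls.

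**Figure D1:**
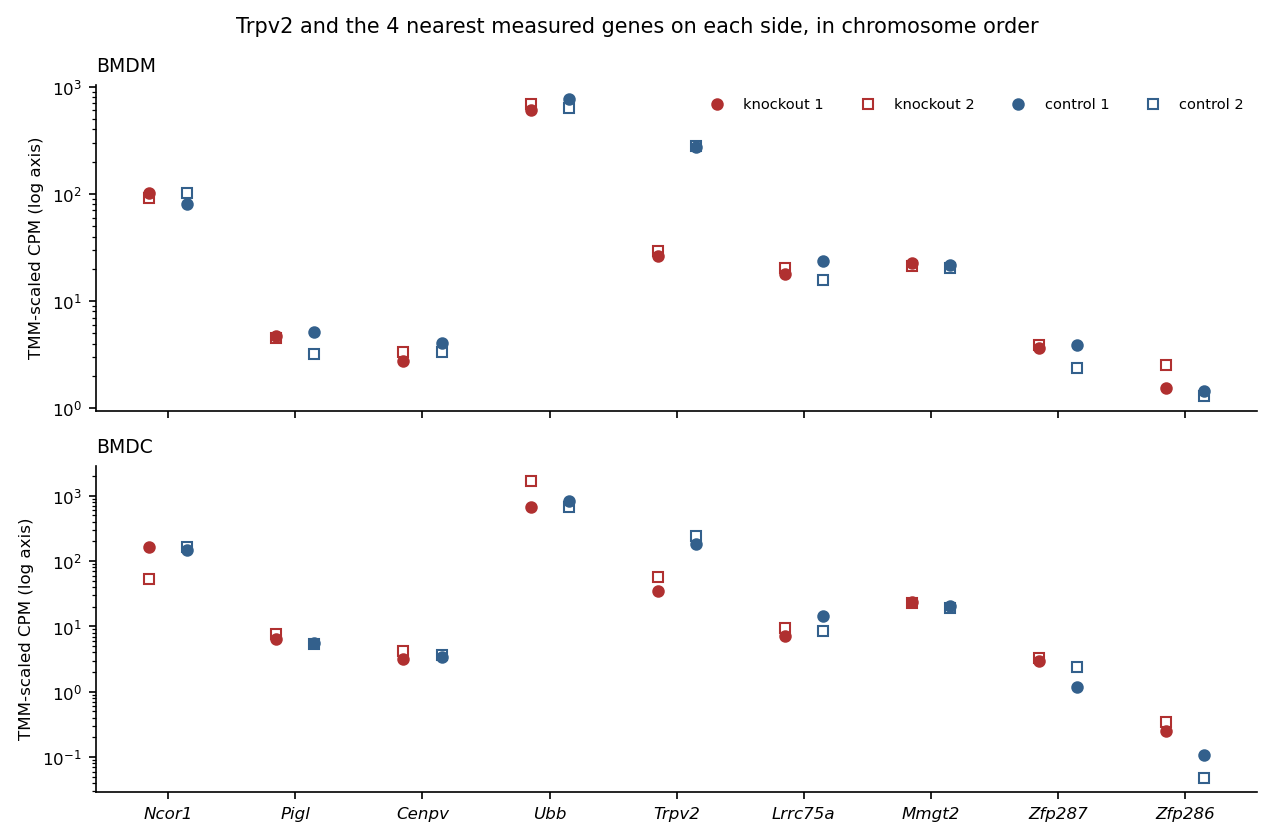
Levels in CPM (log axis) of Trpv2 and its nearest flanking genes in each library, with knockout libraries left of control libraries for BMDM and BMDC. Trpv2 separates by genotype in both cell types (26.4 and 29.1 against 273 and 277 CPM in BMDM), while Ubb, Lrrc75a and Ncor1 overlap in both. Zfp286 in both cell types, Cenpv in BMDM, and Pigl, Mmgt2 and Zfp287 in BMDC also do not overlap. Of all tested genes, 26.8% in BMDM and 25.7% in BMDC do not overlap.

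Over all flanking genes, none of the 50 tested in BMDM passed an adjusted p of 0.05 by edgeR's quasi-likelihood test, where 12 of 11024 genes did (0.109%). By DESeq2 and by limma-voom 0 flanking genes passed as well, where 9 and 12 of all 11024 genes did. By edgeR, 0 flanking genes had an unadjusted p under 0.05, where 2.82% of all tested genes did. In the authors' deposited table for BMDM, 0 of 57 flanking genes had an adjusted p under 0.05, where 8 of 14311 genes did. The smallest unadjusted p of a flanking gene there was 0.119, for Pemt. In the edgeR fit, the log2 fold changes of the flanking genes had a median of -0.02 and a median absolute value of 0.11, against -0.01 and 0.13 over all tested genes. The 95% interval of the fold change lay within 1.5-fold both ways for 33 of the 50 genes, within 2-fold for 45 and within 3-fold for 49. The exception at 3-fold was B9d1, a gene of the ciliary transition zone, with 0.492 and 0.876 CPM in knockout libraries, against 0.758 and 0 CPM in controls, where a count of 0 allows up to 0.194 CPM on this scale.

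Pemt, which encodes the methyltransferase that makes phosphatidylcholine from phosphatidylethanolamine, lies 2.53 Mb before Trpv2 and had the smallest p of the flanking genes in BMDM. It had 1.91 and 2.75 CPM in knockout libraries, against 3.86 and 3.82 CPM in controls, 60.6% of the control mean. Both knockout libraries were below both controls, with a log2 fold change of -0.72 ± 0.37 (SE), an interval of -1.46 to 0.03 and an unadjusted p of 0.0584 in edgeR. In BMDC the same gene had 1.20 and 3.20 CPM in knockout libraries, against 2.33 and 2.48 CPM in controls, which overlap. The next smallest p-values on the lower side were those of Zswim7, Med9, Elac2 and Drg2, and on the higher side those of Specc1, Zfp286, Ttc19, B9d1 and Zfp287. The Mediator subunit gene Med9 had 23.3 and 23.3 CPM in knockout libraries, against 30.0 and 25.5 CPM in controls. Elac2, which encodes a tRNA-processing RNase, had 20.4 and 25.3 CPM in knockout libraries, against 26.8 and 26.6 CPM in controls. Both genes were lower without overlap, at log2 fold changes of -0.25 and -0.23. Specc1, a cytoskeletal coiled-coil gene, had 77.6 and 73.4 CPM in knockout libraries, against 52.9 and 75.4 CPM in controls, which overlap. Ttc19, an assembly factor of respiratory complex III, had 9.72 and 10.3 CPM in knockout libraries, against 8.14 and 8.55 CPM in controls, without overlap.

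Knockout and control libraries of BMDM did not overlap for 14 of the 50 genes tested (28.0%), against 26.8% of all tested genes. Of these, 12 were lower in knockout libraries and 2 were higher (Ttc19 and Zfp286), where over all tested genes 14.2% were lower and 12.6% higher. The lower genes were Cops3, Nt5m, Med9, Pemt, Flii, Top3a, Tnfrsf13b, Mapk7, Cenpv, Tvp23b, Cox10 and Elac2. The most abundant of them, the actin-remodelling gene Flii, had 260 and 277 CPM in knockout libraries, against 305 and 296 CPM in controls, a log2 fold change of -0.17 ± 0.16 (SE).

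In BMDC, the levels of the same neighbours were less even, above all between the 2 knockout libraries. Lrrc75a had 7.07 and 9.61 CPM in knockout libraries, against 14.7 and 8.57 CPM in controls (log2 fold change -0.48, interval -1.62 to 0.65). Ubb had 671 and 1702 CPM in knockout libraries, against 827 and 686 CPM in controls, and Ncor1 had 165 and 54.2 CPM in knockout libraries, against 148 and 164 CPM in controls. In both genes knockout 1 lay beside the controls and knockout 2 far from them, above for Ubb and below for Ncor1. Mmgt2 had 23.6 and 23.0 CPM in knockout libraries, against 20.8 and 19.4 CPM in controls, Pigl 6.42 and 7.66 CPM against 5.57 and 5.45 CPM, and Zfp287 3.01 and 3.34 CPM against 1.19 and 2.39 CPM. These 3 genes were higher in the knockout libraries without overlap, at log2 fold changes of 0.22, 0.35 and 0.83. Of all genes tested in BMDC, 11.9% were higher without overlap. Cenpv had 3.16 and 4.25 CPM in knockout libraries, against 3.36 and 3.60 CPM in controls. Zfp286 had 10 reads over the knockout libraries and 3 over the controls, too few for the test, a ratio of 3.79 after scaling with a 95% counting interval of 0.976 to 21.4.

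None of the 49 flanking genes tested in BMDC passed an adjusted p of 0.05 by edgeR's quasi-likelihood test, nor did any of the 11357 genes tested (0.0%). By DESeq2 and limma-voom 0 flanking genes passed, where 6 and 0 of all 11357 genes did. By edgeR, 0 flanking genes had an unadjusted p under 0.05, against 1.13% of all tested genes. The authors' deposited table for BMDC also held 0 flanking genes under an adjusted p of 0.05, and 1 of all 14755 genes. The smallest unadjusted p of a flanking gene there was 0.178, for Alkbh5. In the edgeR fit, the log2 fold changes of the flanking genes had a median of 0.02 and a median absolute value of 0.27, against 0.02 and 0.33 over all tested genes. The intervals were wide, with 0 of 49 within 1.5-fold both ways, 9 within 2-fold and 35 within 3-fold. Libraries did not overlap for 12 of the 49 (24.5%), against 25.7% of all tested genes. Higher in knockout libraries were 7 genes (Tom1l2, Top3a, Zswim7, Pigl, Mmgt2, Zfp287 and Pmp22, background 11.9%), and 5 were lower (Cops3, Gid4, Alkbh5, Smcr8 and Tvp23b, background 13.8%).

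Among the higher genes, Zswim7, whose product acts in homologous recombination, had 7.98 and 9.68 CPM in BMDC knockout libraries, against 5.20 and 4.92 CPM in controls. Its log2 fold change was 0.81 ± 0.43 (SE), with an unadjusted p of 0.108 in edgeR. Top3a, a topoisomerase gene, had 19.6 and 28.2 CPM in knockout libraries, against 18.7 and 16.1 CPM in controls. Pmp22, a membrane glycoprotein gene best known from myelin, had 372 and 329 CPM in knockout libraries, against 291 and 242 CPM in controls. All 3 genes had both knockout libraries above both controls. Among the lower genes, Alkbh5, an RNA m6A demethylase, had 140 and 66.5 CPM in knockout libraries, against 164 and 199 CPM in controls (log2 fold change -0.80 ± 0.47, SE). Smcr8, a partner of C9orf72 in autophagy, had 116 and 42.1 CPM in knockout libraries, against 121 and 136 CPM in controls. Gid4, a substrate receptor of a ubiquitin ligase, had 26.3 and 12.7 CPM in knockout libraries, against 27.0 and 32.0 CPM in controls. In these 3 genes knockout 1 was closer to the controls and knockout 2 far below them. Tvp23b, a Golgi membrane gene, had 18.9 and 9.26 CPM in knockout libraries, against 19.1 and 22.8 CPM in controls. The heparan sulfate sulfotransferase gene Hs3st3b1, at 1.66 and 0.348 CPM in knockout libraries, against 1.35 and 4.23 CPM in controls, had the lowest log2 fold change, -1.43 ± 0.97 (SE), with overlapping libraries.

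The deviation of BMDC knockout 2 went with the length of the listed transcript. Relative to the mean of the controls, its 25 shorter flanking genes (up to 4025 bases) had a median deviation of 0.31 on the log2 scale and its 24 longer ones -0.41. In BMDC knockout 1 these medians were -0.14 and 0.07. The Spearman correlation of the deviation with length was -0.50 over the 49 flanking genes in knockout 2 and -0.47 over all 11357 genes, given as a description since all points share a library. In knockout 2, 7 flanking genes lay more than 1 log2 unit below the controls (Hs3st3b1, Smcr8, Ncor1, Alkbh5, Gid4, Tvp23b and Akap10) and Ubb lay 1.18 above, while 0 did so in knockout 1. The parts that length, cell composition and RNA quality have in these values were not tested. Without knockout 1, the knockout arm is knockout 2 alone and the spread comes from the 2 controls, with that library assumed to vary like them. In that fit 10 flanking genes were past an adjusted p of 0.05 by edgeR (20.0%), with 27.5% of all tested genes called, which compares 1 library with the controls. Of these Drg2 and Ubb were higher and Akap10, Alkbh5, Flcn, Gid4, Ncor1, Smcr8, Tvp23b and Ulk2 lower. Without knockout 2, 0 passed.

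**Figure D2:**
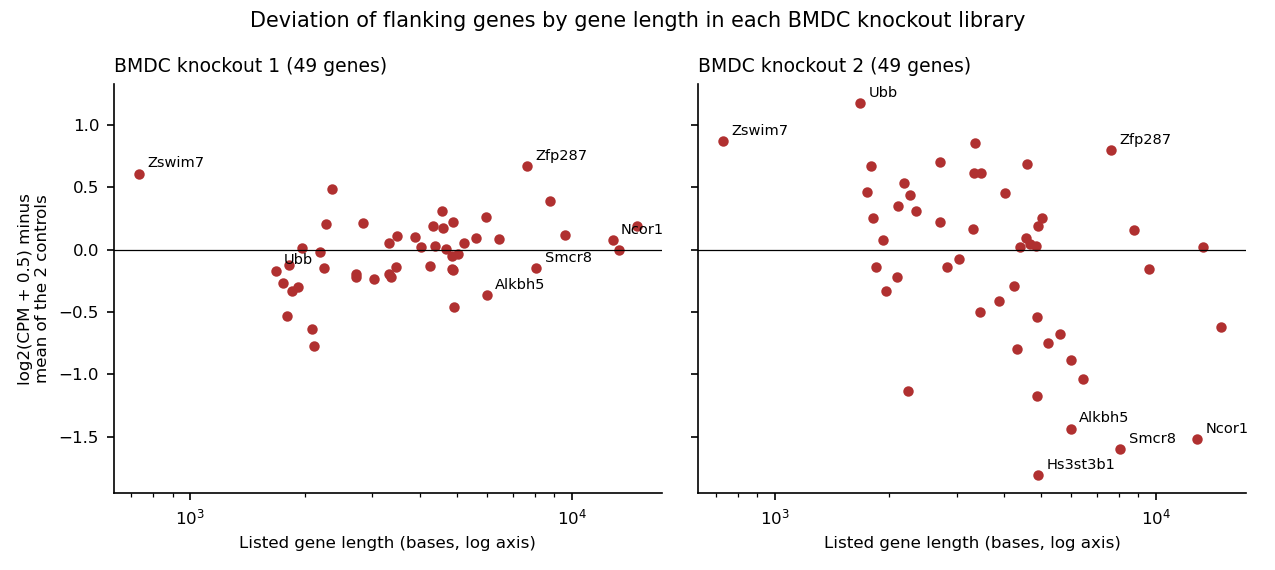
Deviation of each flanking gene from the BMDC control mean (log2 units) in knockout 1 and knockout 2, against the listed transcript length in bases on a log axis, where each point is a gene. In knockout 2 the median is 0.31 over the shorter genes and -0.41 over the longer ones. Genes of each kind lie on both sides of 0. In knockout 1 the medians are -0.14 and 0.07.

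Distance to Trpv2 was compared in bins of the gap between gene bodies. Within 0.25 Mb, 11 genes were tested in BMDM, 6 with a positive and 5 with a negative log2 fold change, and their median was 0.08. Beyond it the medians were -0.03 for 10 genes at 0.25 to 1 Mb, -0.02 for 16 genes at 1 to 2 Mb and -0.13 for 13 genes over 2 Mb. The median absolute log2 fold changes showed no steady order with distance, at 0.10, 0.15, 0.09 and 0.13 from the nearest to the farthest bin. In BMDC the medians over the same bins were 0.22, -0.17, 0.01 and -0.01, and the median absolute values 0.31, 0.33, 0.17 and 0.29, over 10, 10, 16 and 13 genes. Of the 10 nearest genes tested in BMDC, 8 were positive and 2 negative, Lrrc75a and Ncor1. By side, the medians were -0.02 before and -0.03 after Trpv2 in BMDM, and -0.0043 and 0.22 in BMDC. No bin held a gene that passed the test, where 0.109% of all genes tested in BMDM and 0.0% in BMDC did. No test of distance was made, since genes are not replicates.

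**Figure D3:**
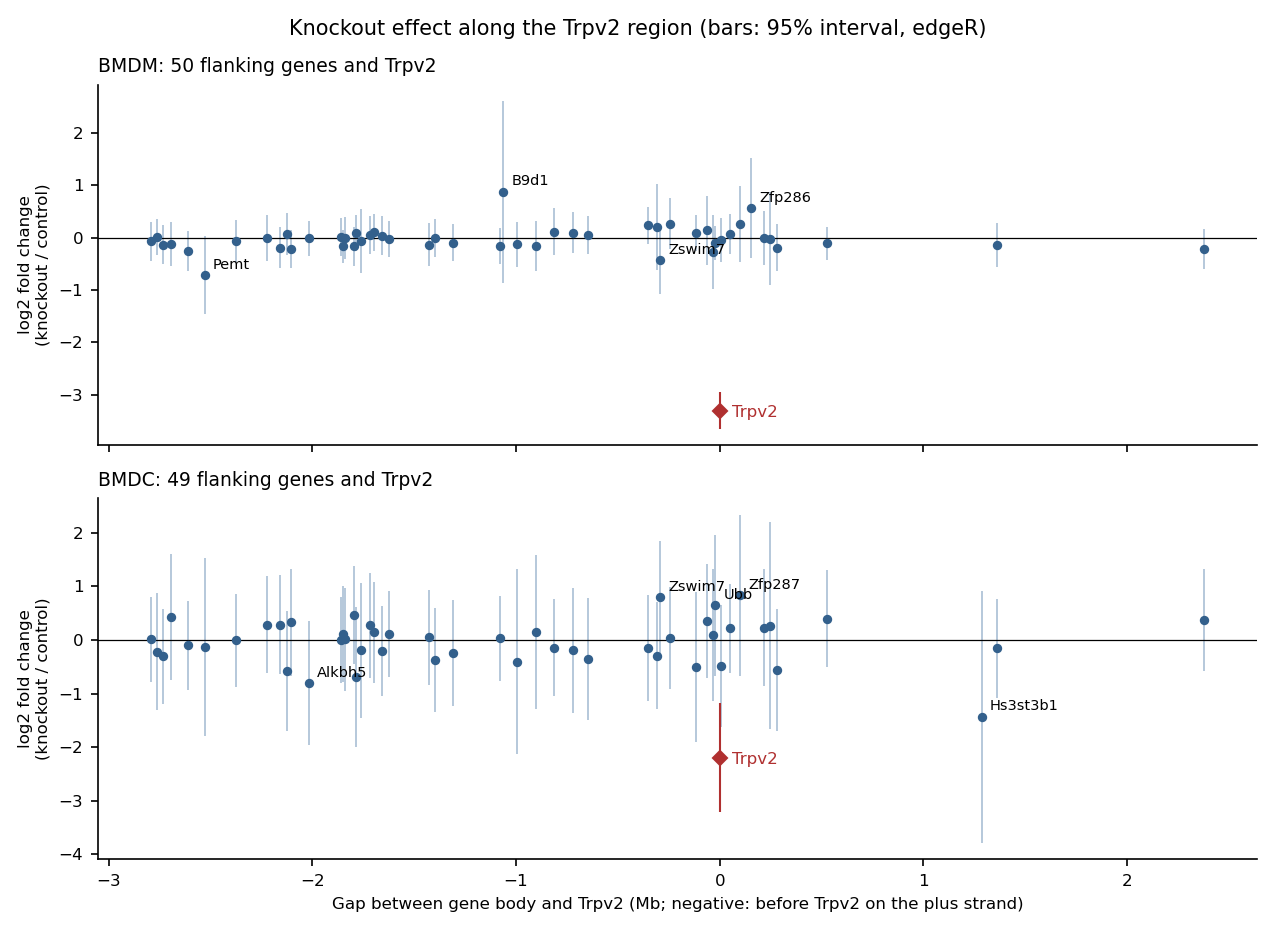
Log2 fold change of knockout over control with 95% intervals for the flanking genes tested, against distance from Trpv2 in Mb, in BMDM and in BMDC. Points are genes, and the intervals of BMDM are narrower (median half-width 0.39) than those of BMDC (0.99), with no flanking gene called in either; Trpv2 is drawn as a diamond.

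The 2 cell types were also compared directly. Of the 48 flanking genes tested in both, 18 had the same sign, 12 lower and 6 higher in knockout libraries of both. The same count was not made over all genes. The BMDC values include knockout 2, whose deviation went with gene length over all genes (Spearman correlation -0.47). A test of whether the knockout effect differed between cell types (its value in BMDM minus that in BMDC, joint fit of 8 libraries) passed 0 of 50 flanking genes by edgeR and 0 of 11671 genes (0.0%), and 0 flanking genes by DESeq2. At an unadjusted p under 0.05 it held 1 flanking gene, Zswim7, against 1.93% of all genes. Zswim7 had 4.68 and 3.21 CPM in BMDM knockout libraries, against 6.07 and 4.60 CPM in BMDM controls, which overlap, and its log2 fold change there was -0.44, opposite in sign to that in BMDC. The difference was -1.24 ± 0.48 on the log2 scale (SE, unadjusted p = 0.0332, adjusted p = 0.841 by edgeR). Without BMDC knockout 1, where BMDC knockout 2 alone stands for its group and is assumed to vary like the other groups, 12 of 50 flanking genes passed (24.0%), with 31.2% of all tested genes called.

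Grouped by role, 0 genes passed in any group in either cell type, where 0.109% of all genes tested in BMDM and 0.0% in BMDC did. The 8 genes of the mitochondrial list tested in each include Elac2, Ttc19, the haem-synthesis gene Cox10 and the nucleotidase gene Nt5m. Pemt is on this list too, and is also counted among the metabolic and glycan enzymes. These 8 genes had a median log2 fold change of -0.14 in BMDM, with 6 of 8 negative, and 0.09 in BMDC, with 6 of 8 positive. Over all genes tested, the median was -0.01 in BMDM, with 51.8% negative, and 0.02 in BMDC, with 48.4% negative. Signalling genes had medians of -0.01 in BMDM and -0.08 in BMDC, over 10 genes each. Map2k3, which activates p38 kinases, had 53.5 and 61.4 CPM in BMDM knockout libraries, against 57.8 and 59.2 CPM in BMDM controls. Mapk7, the kinase ERK5, had 86.0 and 85.5 CPM in BMDC knockout libraries, against 82.2 and 86.5 CPM in BMDC controls. Genes of ubiquitin and protein turnover, with Ubb, Gid4 and the deubiquitinase gene Usp22 among them, had medians of -0.01 in BMDM and -0.04 in BMDC over 6 genes. For genes of transcription and genome upkeep the medians were -0.01 in BMDM and -0.10 in BMDC, for metabolic and glycan enzymes -0.0038 and -0.14, and for cytoskeletal, membrane and traffic genes -0.09 and 0.02.

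Genes that share a start region were read as pairs, and 8 neighbouring pairs point away from each other with starts within 1500 bases. Top3a and Smcr8 start 159 bases apart. In BMDC their log2 fold changes were 0.46 and -0.69, and in BMDM -0.17 and 0.09. Lrrc75a and Mmgt2, the first genes after Trpv2, start 141 bases apart and had -0.48 and 0.22 in BMDC and -0.05 and 0.08 in BMDM. Zswim7 and Ttc19 start 98 bases apart and had 0.81 and 0.03 in BMDC and -0.44 and 0.26 in BMDM. These 3 pairs have the closest starts among the pairs that do not overlap. Of the 7 pairs with both genes tested, 3 had the same sign and 4 opposite signs in BMDM (same in Cops3 and Nt5m, Flii and Mief2, Ncor1 and Pigl), and in BMDC 2 had the same sign and 5 opposite signs. No gene of these pairs passed the test, where 0.109% of all genes tested in BMDM and 0.0% in BMDC did. Reads of overlapping genes such as Ncor1 and Ttc19 cannot be assigned with certainty, since the strand setting of the counting was not given.

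Between the cell types themselves, a few flanking genes differed. Comparing BMDM controls with BMDC controls in the joint fit, 4 of 50 flanking genes passed an adjusted p of 0.05 by edgeR's quasi-likelihood test (8.0%), against 9.75% of all tested genes, 2 higher in BMDM (all genes 4.67%) and 2 lower (5.08%). At an unadjusted p under 0.05 there were 9, against 28.7% of all genes. Adora2b, the A2B adenosine receptor, had 3.65 and 1.56 CPM in BMDM controls, against 30.5 and 56.6 CPM in BMDC controls. BMDM were thus lower, with -4.06 ± 0.48 on the log2 scale (SE, edgeR adjusted p = 0.00322). The knockout libraries had 2.71 and 3.27 CPM in BMDM, against 33.0 and 37.8 CPM in BMDC, so the cell types stayed apart in both genotypes. Tnfrsf13b, the TACI receptor for BAFF and APRIL, had 14.5 and 16.6 CPM in BMDM controls, against 31.0 and 40.3 CPM in BMDC controls (log2 fold change -1.19 ± 0.25, SE, adjusted p = 0.0251 by edgeR). Epn2, an endocytic adaptor, had 13.6 and 15.7 CPM in BMDM controls, against 2.98 and 1.61 CPM in BMDC controls. BMDM were higher here, with 2.67 ± 0.44 on the log2 scale (SE, edgeR adjusted p = 0.0111). Zfp286 had 41 reads over BMDM controls and 3 over BMDC controls, a scaled ratio of 17.8 with a 95% counting interval of 5.68 to 89.9. It passed the count filter of the joint fit through BMDM, where it is high, so its call is given as a description. With a filter at 1 CPM it was not tested, and 3 of 48 flanking genes were called (6.25%), against 1080 of all 10779 genes tested. For all 4 genes the control libraries of the cell types did not overlap. Since the genes were picked by this same contrast, that adds no support to the calls.

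**Figure D4:**
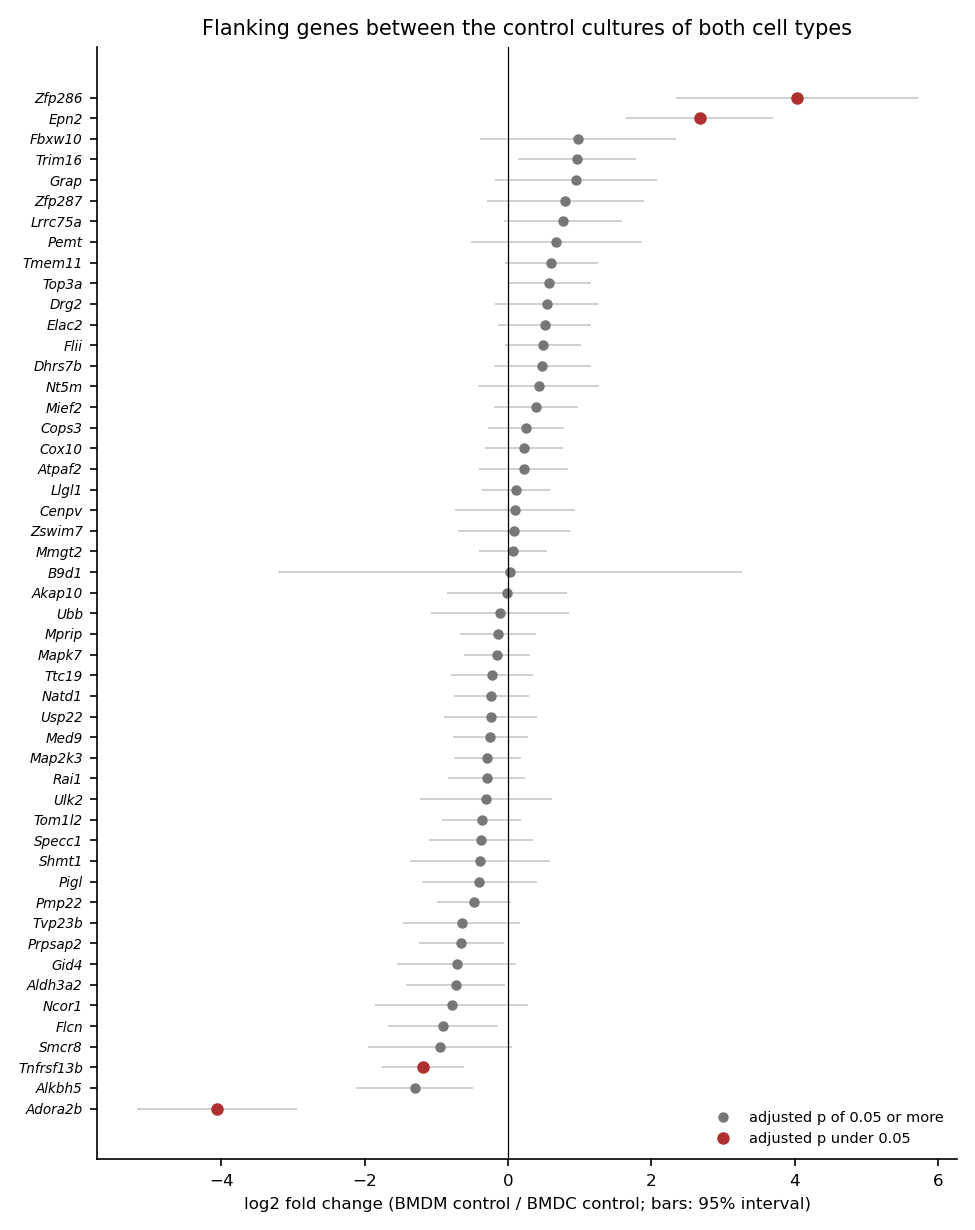
Log2 fold change of BMDM controls over BMDC controls with 95% intervals for the flanking genes tested, with called genes marked. Zfp286 and Epn2 lie highest and Adora2b lowest, at -4.06. The median absolute value is 0.45, against 0.55 over all tested genes.

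The count of 4 depends on which libraries set the spread. With the control libraries alone 15 flanking genes passed by edgeR (30.0%, 5 higher and 10 lower), against 38.3% of all genes, and without BMDC knockout 2 20 passed (40.0%), against 40.8%. Adora2b passed under every alternative run, while Epn2, Tnfrsf13b and Zfp286 did not pass when either BMDM control or BMDC control 2 was left out. Tnfrsf13b and Zfp286 were also lost without BMDC control 1, and Tnfrsf13b without either BMDM knockout library. Alkbh5 was among the genes added with the control libraries alone, with 68.0 and 79.0 CPM in BMDM controls, against 164 and 199 CPM in BMDC controls (adjusted p = 0.058 by edgeR in the joint fit). The summed macrophage and dendritic cell markers also differ between these cultures, and their part in the contrast was not tested. Of the signalling genes 8 of 10 had a negative log2 fold change (median -0.30, 2 called, Adora2b and Tnfrsf13b). Of the genes on the mitochondrial list, with Pemt among them, 7 of 8 had a positive one (median 0.41, 0 called). Over all tested genes the median was -0.02, with 50.8% negative and 9.75% called.

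By the deposited FPKM, which divide by gene length, Ubb, Pmp22 and Flii were the highest flanking genes in all 8 libraries, in that order. In control libraries Ubb averaged 392 FPKM in BMDM and 486 FPKM in BMDC, Pmp22 76.6 and 122 FPKM, and Flii 56.1 and 45.8 FPKM. The median flanking gene had 5.31 FPKM in BMDM controls and 5.83 FPKM in BMDC controls. Of the listed genes, 46 of 57 reached 1 FPKM in BMDM controls and 45 of 59 in BMDC controls. The genes that could not be tested were low. In BMDM, Pld6, Rasd1, Drc3, Kcnj12, Aldh3a1, Hs3st3a1 and Arhgap44 were below the count filter, and Myo15, Fam83g, Tekt3 and Hs3st3b1 were not listed. In BMDC, Pld6, Rasd1, Drc3, Myo15, Aldh3a1, B9d1, Fam83g, Zfp286, Tekt3 and Arhgap44 were below the filter, and Kcnj12 and Hs3st3a1 were not listed.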

How the data were processed

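The samples were 8 RNA-seq libraries, 2 per group of genotype and cell type. Per the labels' protocols, a stranded mRNA kit was used; the submitters' processing notes name cutadapt for trimming and HTSeq for counting. Tool versions, the aligner's settings and whether counting used strand are not given in the sources used here. Deposited values are whole-number counts per gene, the authors' FPKM (counts scaled by listed gene length and library total) and, in the authors' comparison columns, p-values with no tool named. Coordinates are as deposited. The protocol names GRCm38, the notes also list GRCm39, and every start is 109174 bases below that of GENCODE M21 on GRCm38, so gaps to Trpv2 were taken within the deposited tables. Trpv2 is at chromosome 11, 62465312 to 62491341, plus strand.

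Counts were tested with edgeR 4.0.16 in R 4.3.3 (quasi-likelihood, TMM, low counts filtered by filterByExpr with minimum 10, Benjamini-Hochberg over all tested genes, threshold 0.05), within each cell type and, for the interaction and the cell type contrast, in a joint fit. Tests covered 11024 genes in BMDM, 11357 in BMDC and 11671 in the joint fit. DESeq2 1.42.0, limma 3.58.1 (voom), other filters and scalings, a replicate block and fits leaving out a library were alternatives. The edgeR step was also run on simulated counts, given less spread between libraries than edgeR found in BMDC. That run does not show how many changes would be found at the spread of the BMDC libraries. Intervals are 95%, and those on ratios of reads cover counting error only. A gene with no read is bounded at 3 counts.

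The members and role lists were chosen with earlier results of these data known. Genes named are Trpv2, any member called, the 4 tested members nearest on each side, the 5 smallest p-values per direction in each knockout comparison, the called members of the cell type contrast at a mean of at least 1 CPM, the 5 highest by CPM, and members of each role list. Others named were chosen after their values were seen.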

Additional observations from a re-analysis of the deposited data

How the results depend on the processing

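The count of flanking genes called in the BMDM knockout comparison was 0 under every alternative run. In BMDC it was 0 under all alternatives other than leaving out BMDC knockout 1 (range over left-out libraries 0 to 10), and for the difference between the cell types likewise 0 to 12. The contrast of BMDM with BMDC controls gave 4 flanking genes, 1 to 20 with a library left out and 15 with the control libraries only. Of the libraries, leaving out BMDC knockout 1 or BMDC knockout 2 gave 20, BMDC control 1 gave 2, and BMDC control 2, BMDM control 1 or BMDM control 2 gave 1. Over all genes, the BMDM comparison called 12 genes, 11 to 34 with a library left out (34 without BMDM knockout 2), and 2 in the joint fit. The BMDC comparison called 0 genes, 6 by DESeq2, 1 in the joint fit, 1 with no count filter and 0 to 3215 with a library left out. The difference called 0 genes and 0 to 3733 with a library left out. The contrast of controls called 1138 genes, 2212 by DESeq2, 4311 with the control libraries only and 218 to 4877 with a library left out.

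The labels do not say what a replicate number marks. Same-numbered deviations correlated at -0.25 in BMDM and -0.01 in BMDC between knockout and control. Between BMDM and BMDC the correlation was 0.43 in knockout and 0.12 in control libraries. It was -0.47 for BMDM control with BMDC knockout and -0.07 for BMDM knockout with BMDC control. Those groups differ in genotype and so come from different mice, and -0.47 is larger in size than 0.43. A shared mouse across the cell types is thus not settled, and the fits were kept without a block. With the replicate block, 0, 0, 0 and 4 flanking genes were called in the BMDM, BMDC, difference and controls comparisons, and over all genes 11, 2, 0 and 824. A crossed block in BMDM called 29 genes, of them 0 flanking. The crossed block, the length trend in the joint fit and the control libraries only were chosen after seeing the data.

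For single genes, with Trpv2 included, each combination of a gene, a comparison and an alternative run was counted once. Of these combinations, 2477 kept their side of the threshold and their direction, and 70 passed the threshold only under the alternative. Another 13 passed it only in the fit as reported, and 176 changed sign without a call on either side. Precision was limited with 2 libraries per group. The 95% interval lay within 2-fold both ways for 45 of 50 flanking genes in BMDM and 9 of 49 in BMDC. BMDC libraries held 16868675 to 19463457 counts, against 15790185 to 17176941 in BMDM. The coefficient of variation between libraries of a group, as fitted by edgeR, was 0.406 in BMDC and 0.134 in BMDM.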
